A study of Mus musculus with 18 samples.

Results

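Germ cell transcripts were examined in kidney RNA as a set of 33 genes that are normally transcribed in the developing male germ line. They were taken by symbol from the deposited table, where all 33 were found among 19545 rows. The genes were proposed because germ cell transcripts had stood out in earlier results of the control libraries against the high fat diet and STZ libraries. Every level in the controls is therefore given as a description, without a test, and the tests are kept to comparisons that hold no control library.

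The series measured kidney from ICR mice aged 10 weeks in 18 libraries, 3 in each of 6 groups. For the control group the labels name no treatment. AOS mice received AOS, a compound not spelled out, at 10 mg/kg. HS stands for a high fat diet with STZ (streptozotocin, a toxin of the insulin-producing beta cells), and HS_AOS is the same with AOS at 10 mg/kg. HS_AOS_FMT and HS_control_FMT are HS mice with a faecal microbiota transplant (FMT), named AOS 10 mg/kg and control in the labels. The labels give no sex, donor details, duration or dose of the diet or STZ, and do not say whether the libraries of a group came from different mice, so p-values measure the spread between these libraries, which may be technical. Levels are FPKM (fragments per kilobase of transcript, scaled to the size of the library; the unit was read from the values), a scale per length on which genes can be compared within a library.

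Male germ cells pass from spermatogonia, which divide by mitosis, through the long prophase of meiosis to haploid round spermatids, which then elongate into sperm. Each step has its own transcripts. In the last one histones are replaced by transition proteins and then by protamines, whose mRNAs are made in round spermatids, stored and translated later. Most of these genes are silent or low in somatic tissue.

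The libraries held kidney RNA: Slc34a1, the phosphate transporter of the proximal tubule, was at 1762 FPKM or more in each, Umod, which encodes uromodulin of the thick ascending limb, at 218 or more, and Slc22a6, an organic anion transporter, at 285 or more. Ddx3y, on the Y chromosome, lay between 7.32 and 15.7 FPKM in the 18 libraries. Control 3, HS 3 and HS_AOS_FMT 2 carried adrenal transcripts (Cyp11b1, the last enzyme of corticosterone synthesis, at 118, 38.3 and 38.2 FPKM), and Cyp21a1, Akr1b7 and Chga were high in these libraries too. In control 3 Kap, an abundant proximal tubule transcript, was at 15798 FPKM, against 66020 or more in the other libraries. Counts of germ cell genes with all controls above the others are therefore also given without control 3. Counts and sums over the marker lists of other cell types are not. Since the libraries are bulk RNA, they do not show which cells or tissue a transcript came from. The source of the germ cell transcripts was not tested. Fewer cells with a transcript and less of it per cell cannot be told apart either.

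Sequences just upstream of the start of transcription are shown for the protamine and transition protein genes, which were high together in the controls, and for Dazl and Sycp1, an early germ cell and a meiotic gene that were low in every library. The 250 bases before the RefSeq start (GRCm38.p6) are printed 5′ to 3′ along the gene, with capitals marking each CG dinucleotide, the site of DNA methylation:
Prm1 (chr16:10796824-10797073, minus strand): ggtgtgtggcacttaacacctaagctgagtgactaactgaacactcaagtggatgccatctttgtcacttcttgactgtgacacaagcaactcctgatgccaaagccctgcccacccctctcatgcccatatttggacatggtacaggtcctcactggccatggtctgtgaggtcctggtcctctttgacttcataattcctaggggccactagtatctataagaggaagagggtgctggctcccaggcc
Prm2 (chr16:10792106-10792355, minus strand): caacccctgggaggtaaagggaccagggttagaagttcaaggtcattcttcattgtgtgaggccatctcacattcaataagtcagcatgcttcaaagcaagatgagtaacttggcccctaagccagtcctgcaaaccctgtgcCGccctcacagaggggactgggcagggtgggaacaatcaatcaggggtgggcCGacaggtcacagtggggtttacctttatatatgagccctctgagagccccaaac
Tnp1 (chr1:73015900-73016149, minus strand): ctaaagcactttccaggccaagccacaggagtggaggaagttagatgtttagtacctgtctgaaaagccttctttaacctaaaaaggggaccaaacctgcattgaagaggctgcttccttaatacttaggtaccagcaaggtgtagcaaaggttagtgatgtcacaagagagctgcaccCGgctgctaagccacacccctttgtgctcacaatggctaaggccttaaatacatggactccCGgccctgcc
Tnp2 (chr16:10788656-10788905, minus strand): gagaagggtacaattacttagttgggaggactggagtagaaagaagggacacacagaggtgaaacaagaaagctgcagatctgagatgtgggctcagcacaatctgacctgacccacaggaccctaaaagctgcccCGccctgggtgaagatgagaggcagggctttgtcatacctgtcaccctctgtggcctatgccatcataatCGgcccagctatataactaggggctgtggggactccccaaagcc
Dazl (chr17:50293621-50293870, minus strand): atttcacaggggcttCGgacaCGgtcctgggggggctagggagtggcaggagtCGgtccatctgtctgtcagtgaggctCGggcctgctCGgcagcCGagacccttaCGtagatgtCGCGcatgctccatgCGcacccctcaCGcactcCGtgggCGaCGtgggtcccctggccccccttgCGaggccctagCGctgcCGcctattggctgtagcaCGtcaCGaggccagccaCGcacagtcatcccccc
Sycp1 (chr3:102936101-102936350, minus strand): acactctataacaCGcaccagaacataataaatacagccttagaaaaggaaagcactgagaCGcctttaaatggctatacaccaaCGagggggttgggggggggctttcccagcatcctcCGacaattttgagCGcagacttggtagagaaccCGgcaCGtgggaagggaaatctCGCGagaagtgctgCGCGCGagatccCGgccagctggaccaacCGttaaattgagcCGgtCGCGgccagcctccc
The windows of Prm1, Prm2, Tnp1 and Tnp2 held 0, 2, 2 and 2 CG dinucleotides, and those of Dazl and Sycp1 held 20 and 17. These genes were picked with their levels known, so nothing is read from the difference.

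RefSeq promoters of 300 bases (250 before to 50 after the start) were matched for 30 of the 33 genes. By stage the median number of CG dinucleotides was 28 in the 3 premeiotic genes, 15 in the 3 of meiotic prophase, 10 in the 6 of late spermatocytes and round spermatids, 4 in the 11 of the spermatid acrosome group, 3 in the 5 of sperm chromatin and 0 in Akap4 and Smcp. The median over 32851 promoters was 7. The range was wide inside the spermatid acrosome group, from 1 in Acrv1 to 26 in Zpbp2. Split by level, the numbers overlapped. They ran from 0 to 24 in 17 genes whose control levels all lay above the other libraries. In 9 low genes whose groups overlapped they ran from 2 to 38. In 4 genes at 0.5 FPKM or more in the median other library they ran from 0 to 15. Tcp11, with controls above the others, had 24, and Tssk1, low with overlapping groups, had 2. An exact match to the cyclic AMP response element TGACGTCA, the motif of the spermatid regulator CREM, was in 0 of the 30 promoters and in 1.79% of all. The shorter core TGACG, which the full site contains, was in 7 of 30 (23.3%) and in 20.8% of all promoters. Sites that differ from the full element by 1 base were not counted. Examples are tgacttca in the printed Prm1 window and tgatgtca in that of Tnp1, so a CREM site is not excluded. The TATA box TATAAA was in 3 of 30 and 13.6%, the E2F6-type site TCCCGC in 4 of 30 and 20% and the E-box CACGTG in 4 of 30 and 7.15%, each on either strand. Near matches to the TATA box were not counted, such as tataag in the printed Prm1 window and tatataa in that of Tnp2. The printed Prm2 window holds the match only on the opposite strand, as tttata. The count therefore does not show that the other genes lack a TATA box. The premeiotic and meiotic genes held 3 of the 4 E-boxes (Ddx4, Sycp1 and Sycp3) and 3 of the 4 E2F6-type sites (the same genes).

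In 19 of the 33 genes all 3 control values lay above all 15 values of the other libraries, an order found in 1.33% of the 19545 genes. The genes were proposed after germ cell transcripts had stood out in these same controls. Nothing is therefore read from that count or from its split by stage, which was not tested. All controls lay below the others in 0 of the 33 genes and in 0.0563% of all. At 1 FPKM or more in all 3 controls were 10 of the 33 genes, against 57.2% of all. By stage the count of controls above the others was 0 of 3 premeiotic genes, 1 of 3 of meiotic prophase, 6 of 7 of late spermatocytes and round spermatids, 4 of 11 of the spermatid acrosome, kinase and metabolism group, 5 of 5 of sperm chromatin and 3 of 4 of the sperm tail and late spermatid group. The count was 19 without control 3 and 19 without all 3 adrenal-rich libraries. A gap of at least 0.5 FPKM between the lowest control and the highest other library was found in 10 genes.

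**Figure D1:**
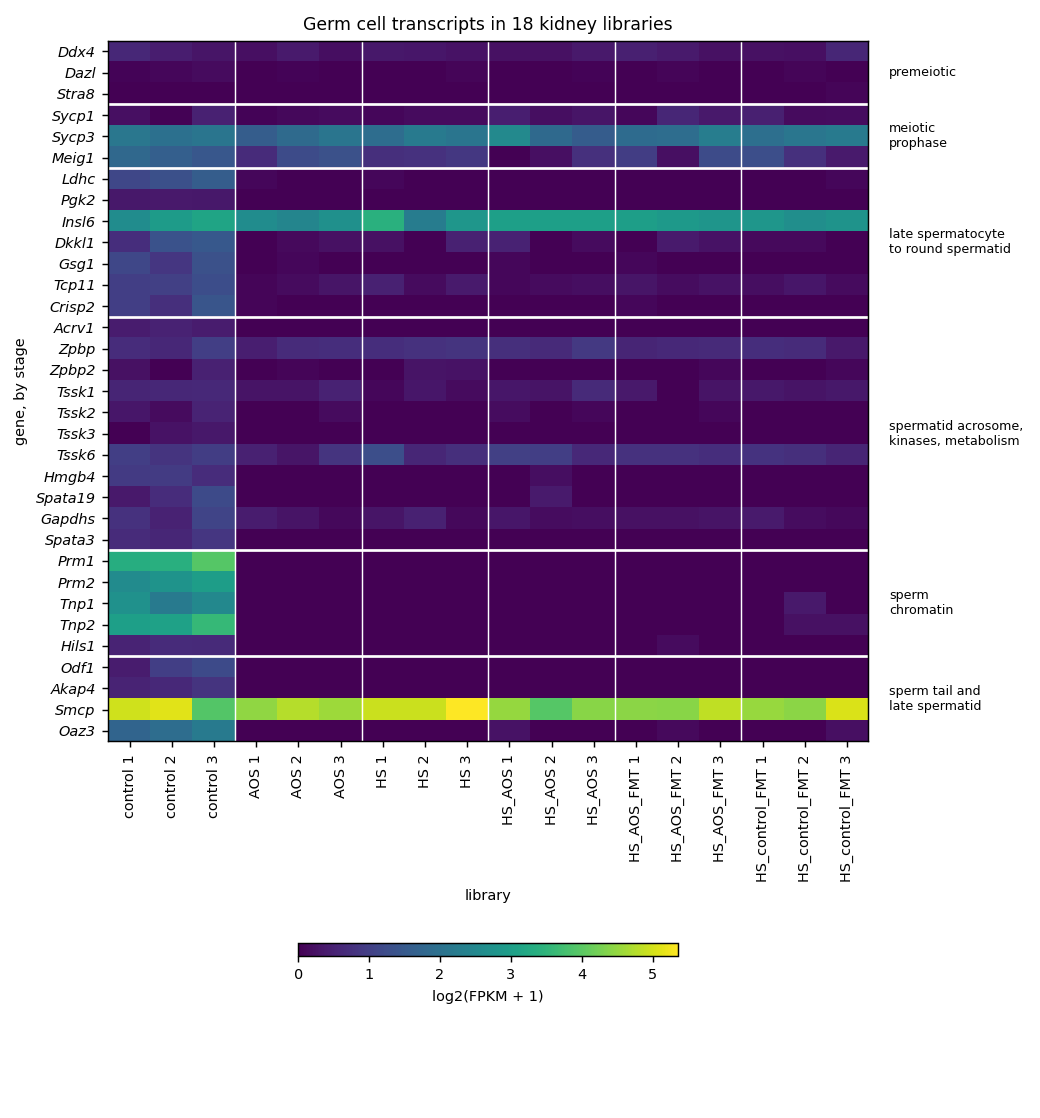
Level of each of the 33 genes (rows, grouped by stage from premeiotic at the top to late spermatid at the bottom) in each of the 18 libraries (columns, 3 per group), coloured by log2(FPKM + 1). The sperm chromatin block is bright in the 3 controls and dark elsewhere, while Sycp3, Insl6 and Smcp are coloured in all 18 libraries.

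Prm1, Tnp2, Prm2 and Tnp1 had the highest levels among those 19 genes in each control. Prm1 encodes protamine 1, the arginine-rich protein that packs sperm DNA, and was at 9.07, 9.44 and 14.5 FPKM in controls 1, 2 and 3. It was listed at 0 in the 15 others. Prm2, which encodes the second protamine, was at 4.99, 5.7 and 6.86 FPKM in the controls and was also listed at 0 in the other 15. Tnp2, which encodes a transition protein that precedes the protamines, was at 7.15, 7.33 and 11.1 FPKM in the controls. Outside them it was listed at 0.19 in HS_control_FMT 2, at 0.18 in HS_control_FMT 3 and at 0 in 13 libraries. Tnp1, its partner, was at 5.53, 3.6 and 4.63 FPKM in the controls and at 0.28 in HS_control_FMT 2, with 14 libraries at 0. The transcript of Hils1, a linker histone of elongating spermatids, was far lower, at 0.44, 0.57 and 0.56 FPKM in the controls and at 0.11 in HS_AOS_FMT 2. Of the 75 values of these 5 genes outside the controls, 4 were above 0.

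Prm1, Prm2 and Tnp2 lie next to each other on chromosome 16 (10796332 to 10796823, 10791377 to 10792105 and 10787935 to 10788655, GRCm38), and Tnp1 on chromosome 1 (73015074 to 73015899). The transcripts of these 4 genes are short, 437 to 674 bases in GENCODE, so that few fragments stand behind a given FPKM. Prm3, a gene between Prm2 and Tnp2 in this cluster, was at 0.31, 0 and 1.68 FPKM in the controls and listed at 0 in the other 15. It is no member and was chosen after its values were seen.

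Levels relative to Prm1 were alike in the 3 controls for some transcripts and not for others. Tnp2 was at 78.8%, 77.6% and 76.7% of the Prm1 level in controls 1, 2 and 3. Prm2 was at 55%, 60.4% and 47.3%, and Tnp1 varied more, at 61%, 38.1% and 31.9%. Oaz3 was at 25.7%, 29.7% and 24.5% and Ldhc at 13.2%, 15.6% and 13.9%. Meig1 was at 27.6%, 22.1% and 12%, and Odf1 at 3.53%, 10.5% and 9.03%. Of the 19 genes 13 were highest in control 3, 4 in control 2 and 2 in control 1. The level in control 3 over the mean of controls 1 and 2 had a median of 1.48 over the 19 genes, from 0.674 in Hmgb4 to 2.02 in Gapdhs. The same ratio had a median of 1.18 over the 10614 genes at 1 FPKM or more in every library. The summed level of the 19 genes was 40.5, 41.1 and 56.6 FPKM in controls 1, 2 and 3 and between 0.56 and 2 in the others.

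**Figure D2:**
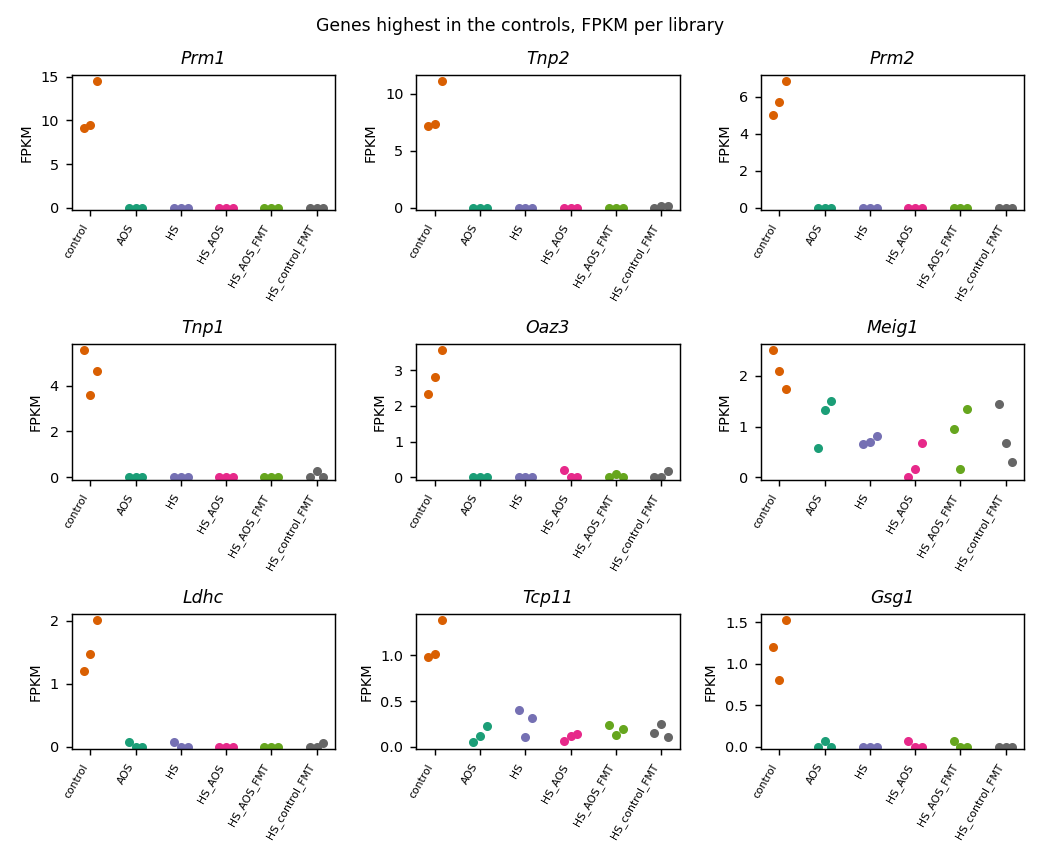
FPKM (vertical axes, linear from 0) of the 9 genes with the highest lowest control value among those whose controls lie above all other libraries, with 1 dot per library in each of the 6 groups. Apart from Meig1 and Tcp11, which are above 0 in most libraries, the dots outside the controls lie at or close to 0.

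Transcripts of the sperm tail and of late spermatids formed a mixed group. Oaz3 encodes an ornithine decarboxylase antizyme made in spermatids. Its levels were 2.33, 2.8 and 3.55 FPKM in the controls, with 12 of 15 others at 0 and a highest value of 0.2 in HS_AOS 1. Odf1, a protein of the outer dense fibres of the tail, was at 0.32, 0.99 and 1.31 FPKM in the controls. Akap4, the main protein of the fibrous sheath, was at 0.45, 0.54 and 0.76 FPKM, and both were listed at 0 in the other 15. Smcp, which encodes a cysteine-rich protein of the sperm mitochondrial capsule, did not follow them. It was at 30.2, 33.6 and 14.3 FPKM in the controls and between 14.3 and 40.1, with a median of 22.3, in the others. Its lowest control and its highest library, HS 3, show that the controls and the other groups overlap.

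Genes that come on in late spermatocytes and round spermatids were mostly near 1 FPKM in the controls. Ldhc, the lactate dehydrogenase of germ cells, was at 1.2, 1.47 and 2.01 FPKM in the controls and at 0.07 or less elsewhere. Gsg1, a germ cell membrane protein, was at 1.2, 0.8 and 1.53 FPKM, and Crisp2, a cysteine-rich secretory protein of the acrosome and tail, at 1, 0.66 and 1.65. The others reached 0.07 and 0.06 at most. Tcp11, required for sperm motility, was at 0.98, 1.02 and 1.39 FPKM in the controls but was above 0 in all 15 others as well, from 0.05 to 0.4. Dkkl1, an acrosomal protein, was at 0.62, 1.54 and 1.79 FPKM in the controls and at up to 0.43 elsewhere, with 10 of 15 above 0. Pgk2, the phosphoglycerate kinase retrogene of germ cells, was at 0.27, 0.28 and 0.27 FPKM in the controls and listed at 0 in the rest. Insl6, a relaxin-like peptide of germ cells, was measured everywhere, at 5.09 to 7.77 FPKM in the controls and 3.78 to 9.55 in the others.

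In the spermatid acrosome, kinase and metabolism group no gene reached 1 FPKM in all 3 controls. Hmgb4, a chromatin protein of spermatids, was at 0.88, 0.9 and 0.6 FPKM in the controls, with a single value above 0 outside them, 0.14 in HS_AOS 2. Spata3 was at 0.57, 0.5 and 0.79 FPKM and Acrv1, an acrosomal vesicle protein, at 0.33, 0.43 and 0.33, and both were listed at 0 in the 15 others. Gapdhs, the glycolytic enzyme of the sperm tail, was at 0.71, 0.42 and 1.14 FPKM in the controls and between 0.08 and 0.4 in the others, so its gap was 0.02 FPKM wide at the narrowest point. Spata19, a mitochondrial protein of the midpiece, was at 0.28, 0.61 and 1.32 FPKM in the controls, and HS_AOS 2 at 0.3 lay above control 1. The testis-specific serine kinases differed among themselves. Tssk3 was at 0, 0.2 and 0.27 FPKM in the controls and 0 elsewhere, and Tssk2 at 0.25, 0.11 and 0.44 with a highest other value of 0.13. Tssk1 lay between 0.47 and 0.54 FPKM in the controls and at up to 0.55 in the others, and Tssk6 between 0.74 and 0.98 and at up to 1.44. Zpbp, a zona pellucida binding protein, was between 0.52 and 0.98 FPKM in the controls and between 0.28 and 0.84 in the others, and its paralogue Zpbp2 was at 0.18, 0 and 0.4 in the controls and at up to 0.21 elsewhere.

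The 3 premeiotic genes and 2 of the 3 of meiotic prophase overlapped between the controls and the others. Ddx4, the RNA helicase vasa, was at 0.51, 0.35 and 0.23 FPKM in the controls and between 0.15 and 0.5 in the others. Dazl, an RNA-binding protein of early germ cells, was at 0.03, 0.07 and 0.11 FPKM in the controls and at 0.05 or less elsewhere, so that its controls lay above the others once control 1 was left out. Stra8, which starts meiosis, was listed at 0 in 17 libraries and at 0.05 in HS_control_FMT 3. Among the genes of meiotic prophase, Sycp1 of the synaptonemal complex was at 0.16, 0.02 and 0.4 FPKM in the controls and between 0.04 and 0.48 in the others. Sycp3, of the same complex, was between 2.92 and 3.34 FPKM in the controls and between 1.96 and 4.72 in the others. Meig1, needed in meiosis and for building the sperm tail, was at 2.5, 2.09 and 1.74 FPKM in the controls and reached 1.51 in AOS 3, so the groups were separated by a narrow margin, and after quantile normalization they overlapped.

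**Figure D3:**
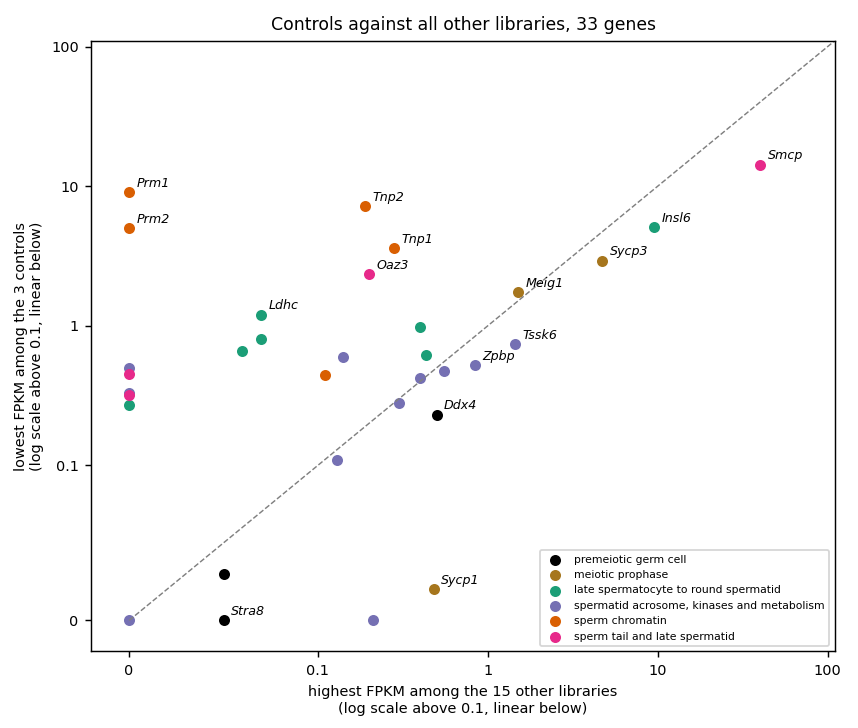
The lowest FPKM among the 3 controls (vertical) against the highest among the 15 other libraries (horizontal) for each of the 33 genes, coloured by stage; both axes are logarithmic above 0.1 FPKM and linear below, and the dashed line marks equal values. Prm1, Prm2, Tnp1, Tnp2, Oaz3 and Ldhc lie far above the line, the premeiotic genes lie near or below it, and Smcp, Insl6, Sycp3, Tssk6 and Zpbp lie below it at higher levels.

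The sources used here do not give the program or the strand setting behind the gene values, and 9 of the 33 genes share exon bases with another annotated gene. For these genes reads cannot be assigned with certainty. Sycp3 overlaps Chpt1 on the opposite strand, whose level was between 622 and 1089 FPKM, and Tssk6 overlaps Ndufa13, at 365 to 678. Oaz3 overlaps Mrpl9, at 31.1 to 33.2 FPKM in the controls and 25.8 to 32 in the others. Tssk1 overlaps Dgcr2, Gsg1 overlaps Fam234b and Zpbp overlaps Spata48, all on the opposite strand. Tnp1, Gapdhs and Tcp11 overlap non-coding transcripts. Prm1, Prm2, Tnp2, Ldhc, Insl6, Smcp and Meig1 overlap no other annotated exon.

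Other germ cell genes were taken from lists made by hand from textbook knowledge, with earlier results of these data known. All 3 controls lay above the 15 other libraries for 1 of 18 other spermatogonial genes, 3 of 33 other meiotic genes, 9 of 34 other round spermatid genes and 21 of 43 other genes of elongating spermatids and sperm. The share over all genes was 1.33%, and 0 of these 128 genes had all controls below the other libraries. Without control 3 the counts were 1, 3, 10 and 22, and over all genes 355 in place of 260. After quantile normalization they were 1, 2, 6 and 23. With control 2 left out the round spermatid count was 14, and 582 genes of the whole table then passed. Over all these lists together, 34 of the 128 genes had all controls above the others, and their levels were low. Of those 34 genes 0 were at 1 FPKM or more in all 3 controls. Of the 128 genes, 102 stayed below 1 FPKM in every library.

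Examples from the 4 lists were chosen after their values were seen. Dmrtb1, a transcription factor of spermatogonia, was at 0.56, 0.11 and 0.33 FPKM in the controls and at 0.04 or less elsewhere. Mael, a protein of the piRNA pathway in meiotic cells, was at 0.61, 0.67 and 0.55 FPKM in the controls and at 0.05 or less elsewhere. Adam5, a sperm surface protein, was at 0.43, 0.45 and 0.4 FPKM, with others at up to 0.08. Spink2, a protease inhibitor of the acrosome, was at 0.66, 0.43 and 1.52 FPKM, with others at up to 0.17, and Tuba3a, an alpha tubulin of the testis, at 0.51, 0.45 and 0.8, with others at up to 0.06. The genes with the highest levels in these lists were expressed in all groups and did not separate the controls. They were Id4, Kit, Gfra1 and Zbtb16 among the spermatogonial genes, Ybx2, Syce2, Prdm9 and Tdrd5 among the meiotic ones, Pgam2, Crem, Tbpl1 and Pdilt among the round spermatid ones and Spa17, Spata6, Odf2 and Ropn1l among the late ones. Crem, which encodes the spermatid transcription factor and is also used in somatic cells, was between 6.41 and 7.35 FPKM in the controls and between 4.86 and 14.6 in the others.

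**Figure D4:**
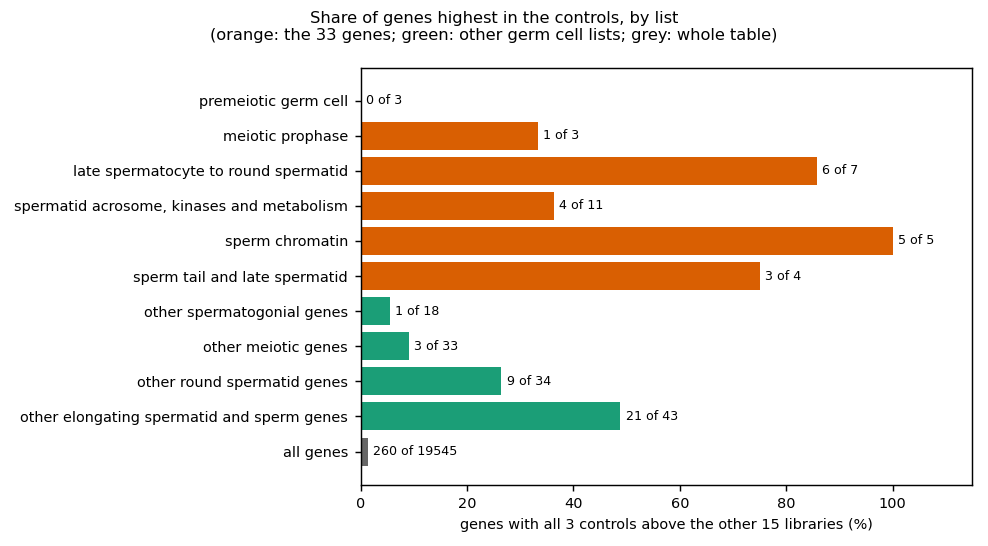
Percentage of genes (horizontal axis, from 0) whose 3 control values all lie above the 15 other libraries, for the 33 genes by stage (orange), other germ cell lists (green) and the whole table (grey), with the counts beside each bar. The share is 21 of 43 for other genes of elongating spermatids and sperm, 1 of 18 for other spermatogonial genes and 260 of 19545 over the table.

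Markers of the somatic cells around germ cells were checked in the same libraries, and their part in the result was not tested. Of 11 Sertoli cell markers 0 had all controls above the others, and 11 stayed below 1 FPKM in every library. The summed Sertoli list was nevertheless higher in each control, at 1.78 to 2.42 FPKM, than in any other library, at 0.52 to 1.53. The median of the controls lay above that of the others for 6 of the 11 markers and below it for 2, against 44% above over all genes. The 4 with the highest levels were Cst12 (0.4, 0.18 and 0.21 FPKM in the controls, at most 0.21 elsewhere), Aard (0.32, 0.17 and 0.45, at most 0.24), Tsx (0.25, 0.22 and 0.62, at most 0.33) and Defb36 (0.25, 0.89 and 0.27, at most 0.98). Further markers were named after their values were seen. Cst9 was at 0.29, 0 and 0.15 FPKM in the controls and listed at 0 in the 15 others. Rhox5 was listed at 0 in all 18, and Amh, the anti-Müllerian hormone, was at 0.04 to 0.1 FPKM in the controls and up to 0.2 elsewhere.

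Of 8 Leydig cell markers 1, Cyp17a1, a steroid hydroxylase, had all controls above the others (0.36, 0.2 and 0.96 FPKM against 0.19 or less). The median of the controls lay above that of the others for 3 of the 8 and below it for 3, against 44% above over all genes. Lhcgr, the receptor for luteinising hormone, was listed at 0 in the controls. Hsd17b3 was at 0.08, 0.12 and 0.14 FPKM in the controls, with a median of 0.19 in the others. Cyp17a1, Lhcgr and Hsd17b3 were named after their values were seen. Insl3, a hormone of Leydig cells, was at 2.41, 2.22 and 10.1 FPKM in the controls and between 0.31 and 5.35 elsewhere. The list also holds Hsd3b1, Star and Cyp11a1, which the adrenal expresses and which were at 297, 125 and 106 FPKM in control 3 and at 1 or less in controls 1 and 2. The sum of the list ran from 3.98 to 539 FPKM in the controls and from 2 to 265 in the others.

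Of 11 epididymis markers 0 separated the controls. Their sum of 11 to 24.3 FPKM in the controls and 7.72 to 15.8 in the others came mostly from Spink8, and Cst8, Crisp1 and Wfdc10 were next. Spink8 was at 12.3, 10.4 and 23.45 FPKM in controls 1, 2 and 3 and at most 15.42 elsewhere. Wfdc10 was at 0.26, 0.23 and 0 FPKM in the controls and listed at 0 elsewhere. Of 7 accessory gland markers 0 separated them, and Spink1, at 550 FPKM or more in every library, made up nearly all of the sum, with Sbp, Svs1 and Svs2 at 0.44 or less. Of 10 oocyte markers, led by Bmp15, Gdf9, Nobox and Oosp1, 0 separated them, with sums of 0.3 to 0.82 FPKM in the controls and 0.11 to 0.45 in the others. Bmp15 was at 0.08, 0.11 and 0.45 FPKM in controls 1, 2 and 3 and at most 0.22 elsewhere. Of 13 motile cilia genes, led by Rsph1, Foxj1, Dnah11 and Spag6l, the count was 0 as well, with sums of 3.18 to 7.65 and 1.76 to 3.85 FPKM. Rsph1, of the radial spokes of cilia and sperm tails, was at 1.6, 2.47 and 3.01 FPKM in the controls and between 0.36 and 1.94 elsewhere.

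Adrenal transcripts were present in control 3 and in libraries of other groups. Cyp11b1 was at 0 in controls 1 and 2, where Prm1 was at 9.07 and 9.44 FPKM. In HS 3 and HS_AOS_FMT 2, which carried the adrenal transcripts, Prm1, Prm2, Tnp1 and Tnp2 were listed at 0. Of the 19 genes with controls above the others, 4 were above 0 in HS 3 and 6 in HS_AOS_FMT 2, against 3 to 6 over all 15 libraries outside the controls. In HS_AOS_FMT 2 these included Hils1 at 0.11, Oaz3 at 0.1 and Dkkl1 at 0.31 FPKM. A link between the adrenal and the germ cell transcripts was not tested.

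Whether the germ cell transcripts differed between groups other than the controls was asked in 5 comparisons. Of the 33 genes 10 reached 1 FPKM in at least 3 libraries and were tested among 12385 genes. Of these 10, Prm1, Prm2, Tnp1, Tnp2, Oaz3 and Ldhc passed that minimum through the controls alone and were at or near 0 in the groups compared, and the other 23 genes were not tested. Smcp, Insl6, Sycp3 and Meig1 were the tested genes with levels in the groups compared. In limma (a linear model on log2(FPKM + 1) with Benjamini-Hochberg adjustment over all genes tested) 0 of the 10 were called in HS_AOS against HS, where 2.3% of all tested genes were (1.1% higher and 1.2% lower). The count was also 0 in HS_AOS_FMT against HS (0.977% of all genes, 0.444% higher and 0.533% lower), in HS_control_FMT against HS (0.751%, 0.46% and 0.291%), in HS_AOS_FMT against HS_control_FMT (3.99%, 2.9% and 1.09%) and in HS_AOS against AOS (3.89%, 2.82% and 1.07%). At an unadjusted limma p under 0.05 there were 1, 0, 0, 0 and 2 of the 10 genes in the same order, against 20.3%, 18.1%, 15.2%, 19.8% and 23.7% of all tested genes. Genes at or near 0 in the groups compared could hardly differ there. The counts, adjusted or not, therefore rest on Smcp, Insl6, Sycp3 and Meig1. These are too few to set against a share, so nothing is read from the counts. The values of these genes are given as a description.

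In HS_AOS against HS the gene was Smcp. It was at 29.3, 29.7 and 40.1 FPKM in HS and at 21.9, 14.3 and 20.2 in HS_AOS, so the groups did not overlap. The difference was -0.79 on the log2 scale (SE 0.265, limma adjusted p = 0.116). With control 3 left out of the fit, which changes the shared spread but neither group, the limma adjusted p was 0.0274 at the same difference, a setting that called 6.74% of all genes tested, and over all settings tried it ran from 0.0274 to 0.369. HS_AOS_FMT, at 20.6, 20.1 and 27.6 FPKM, lay below HS as well (log2 -0.52, limma adjusted p = 0.322), and HS_control_FMT, at 22.3, 20.6 and 32.2, overlapped it (log2 -0.40, limma adjusted p = 0.488). These 3 comparisons share the HS libraries. In HS 3, the library with the highest Smcp, adrenal transcripts were present. Without the 3 adrenal-rich libraries the difference from HS was -0.64 in HS_AOS (limma adjusted p = 0.144), -0.30 in HS_AOS_FMT (0.571) and -0.26 in HS_control_FMT (0.527). Without HS 3 alone it was -0.64, -0.37 and -0.26 in the same order (limma adjusted p = 0.369, 0.624 and 0.746). The HS_control_FMT difference was -0.28 without HS_control_FMT 2.

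Meig1 and Insl6 were the genes of HS_AOS against AOS. Meig1 was at 0.57, 1.33 and 1.51 FPKM in AOS and at 0, 0.17 and 0.67 in HS_AOS, where the groups overlapped (log2 -0.74, SE 0.278, limma adjusted p = 0.125). Insl6 was at 5.11, 4.45 and 5.45 FPKM in AOS and at 7.11, 7.12 and 7.16 in HS_AOS, without overlap (log2 0.44, SE 0.204, limma adjusted p = 0.206). Its 3 values in HS were 9.55, 3.78 and 6, which span those of both groups. Sycp3 was at 3.19 ± 0.405 FPKM in HS, 3.08 ± 1.45 in HS_AOS, 3.10 ± 0.662 in HS_AOS_FMT, 3.25 ± 0.348 in HS_control_FMT and 2.61 ± 0.62 in AOS (SD, n = 3). Its log2 differences lay between -0.09 and 0.13 in the 5 comparisons.

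**Figure D5:**
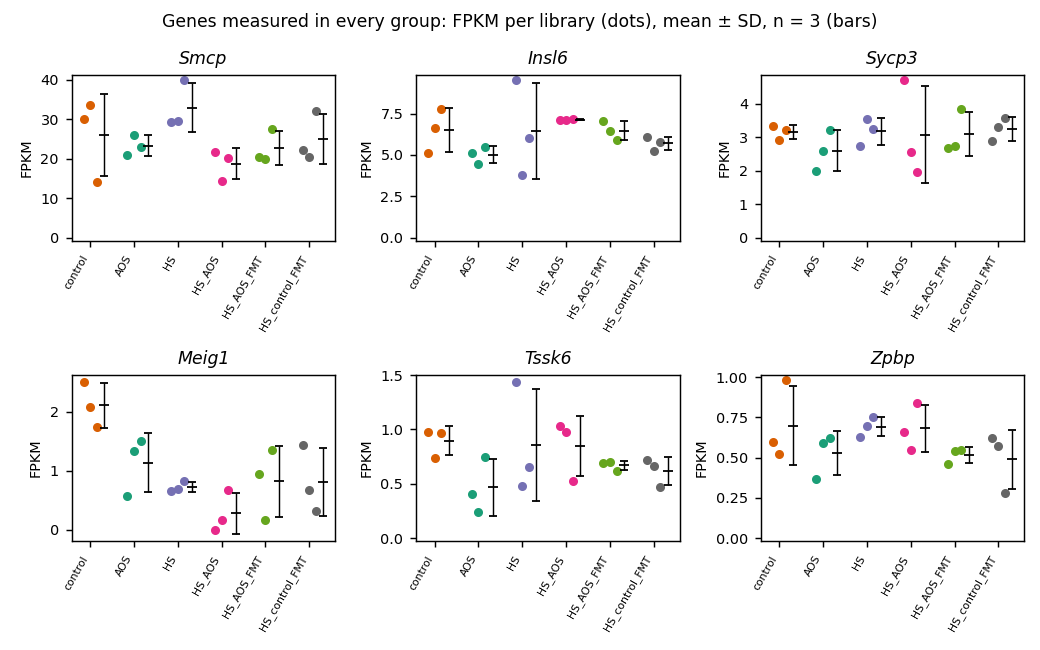
FPKM per library (dots, linear vertical axes) in the 6 groups for 6 of the 33 genes that were measured in every group, with the mean ± SD of 3 libraries as a black bar beside the dots. Smcp lies higher in the 3 HS libraries than in the 3 HS_AOS libraries, and Meig1 is highest in the controls, while the other 4 genes show groups that mostly overlap.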

How the data were processed

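Kidney RNA was sequenced in 18 libraries. Bowtie 0.12.2 and mm10 are named in the submitters' processing notes. The program that made the gene values, its annotation, strand setting and filters: not given in the sources used here. In the table deposited by the authors there is 1 FPKM value per gene and library, with 2 decimals. The unit was read from the values, since no label names it. There are no counts, so depth is unknown and a value of 0 is reported as listed at 0. Genes above 0 numbered 16418 to 17270 in the controls and 15773 to 16514 in the other libraries. Whether detection of low transcripts differed between them was not tested. The labels gave the groups.

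For the tests, values were taken as log2(FPKM + 1), which understates changes at low levels, and genes reaching 1 FPKM in 3 or more libraries were fitted (12385 of 19545 rows) with 1 mean per group over all libraries in limma 3.58.1 (R 4.3.3, trend and robust options, with 12 residual degrees of freedom). The Benjamini-Hochberg adjustment ran over all genes tested, with a threshold of 0.05. The fit was checked on simulated data, with changes placed only in genes above a set mean level. The check therefore does not cover genes at or near 0. A count test had been named for the case of counts and did not apply. The 33 genes and the lists were chosen with earlier results of these data known, and stages were assigned by hand from textbook knowledge. Named genes were all 33, and of each other list the 4 with the highest mean in any group and any with all controls above the other libraries at 1 FPKM or more; further names are marked as chosen after their values were seen. The lists covered spermatogonial, meiotic, round spermatid, late spermatid, Sertoli, Leydig, epididymis, accessory gland, oocyte, motile cilia, adrenal and kidney genes. Alternatives were the pseudocount (0.1), the filter (none, or 5 FPKM), quantile normalization, limma without trend, the compared groups alone, the replicate number as a block, other levels, each library left out and, chosen after seeing the data, control 3 or the 3 adrenal-rich libraries left out. For genes with several RefSeq starts the most upstream one was used. Positions and promoters are from RefSeq (GRCm38), overlaps and transcript lengths from GENCODE M21.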

Additional observations from a re-analysis of the deposited data

How the results depend on the processing

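The number of genes with all 3 controls above the other libraries was 19 and fell to 10 when a gap of at least 0.5 FPKM was required. It was 18 after quantile normalization and between 19 and 22 with a control left out. The number at 1 FPKM or more in all 3 controls was 10 (57.2% of all genes reach that level) and rose to 18 at a level of 0.5. The number of genes of the whole table at 1 FPKM or more in the controls and below 0.5 in all others was 6, and it was 20 with a level of 0.5 in the controls. Of 75 alternatives over the 5 comparisons, 74 called 0 of the 33 genes with limma, but 7 of these called 0 of all genes tested, so that they say nothing about the 33. Over the 75 the share of all genes called ran from 0 to 11.8%. Of the 33 genes 10 were tested in 50 alternatives, fewer in 20 and all in 5 (no filter). Among these 10, Prm1, Prm2, Tnp1, Tnp2, Oaz3 and Ldhc were at or near 0 in the groups compared and could hardly be called. The other alternative called 1, Smcp, in HS_AOS against HS with control 3 left out of the fit, where 6.74% of all genes were called. With the replicate number as a block the count was 0 of 10 in each of the 5 comparisons, where 0.719%, 0.299%, 0.517%, 2.23% and 1.71% of all genes were called. Same-numbered libraries did not deviate together (median correlation -0.009 over 45 pairs, from -0.356 to 0.312), and 7 of 18 libraries correlated best with one of their own number. Where a library was left out, the pooled fit assumes that the 2 left vary like the other groups. Values near 0.1 FPKM may rest on few fragments, and the depth behind them is unknown. The smallest value above 0 differed by gene, at 0.02 FPKM for Sycp1 and 0.28 for Tnp1.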

Other observations

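The pattern of the protamine genes was looked for over the whole table, as a description. The pattern was chosen from these data, and the 33 genes were proposed after germ cell transcripts had stood out in the controls. Nothing is therefore read from how many of the 33 show it. At 1 FPKM or more in all 3 controls and below 0.5 in the 15 others were 6 genes, all of them among the 33: Prm1, Prm2, Tnp1, Tnp2, Oaz3 and Ldhc. With a level of 0.5 FPKM in the controls there were 20 genes, 12 of the 33 and 8 more, which were named after their values were seen. Fabp9, a fatty acid binding protein of the sperm head, was at 0.95, 1.81 and 2.45 FPKM in controls 1, 2 and 3 and at 0.28 or less elsewhere. Spata4, a testis gene, was at 1.2, 0.75 and 1.38 FPKM and Spz1, a transcription factor of spermatogenesis, at 0.53, 0.74 and 0.96, and both were listed at 0 in the other 15. Fhl4, a LIM domain protein of the testis, was at 0.88, 0.53 and 0.79 FPKM and Iqcf3 at 0.78, 0.51 and 0.53. The other 3 were Mael, Cmtm2a and 1700034E13Rik. In the opposite direction, 11 of 19545 genes (0.0563%) had all controls below the other libraries, and 0 of the 33 were among them.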
